A study of Mus musculus with 49 samples.

Results

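Leukaemias that began in common myeloid progenitors (CMP:MA9, n = 4) were compared with leukaemias that began in granulocyte-macrophage progenitors (GMP:MA9, n = 6), so that 10 of the 49 samples of the series entered the comparison. Every gene with a mean of at least 1 FPKM (fragments mapped to a transcript, scaled by its length and by the size of the library) over these 10 samples was used, which left 12077 of 38253 genes. Of these, 11612 had a gene symbol. At the border of this limit, Ehhadh and Hic2 lay just inside with means of 1.00 FPKM, and Otub2 and 4930430E12Rik lay just outside with means of 0.997 FPKM.

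All mice were C57BL/6J wild-type females, given as 6 to 12 weeks of age. For the leukaemias this is not the age at sampling, which came after the disease had developed and was not given. The study reported longer survival after transplant for GMP:MA9 than for CMP:MA9. Time to disease and age at sampling therefore cannot be told apart from origin. For both leukaemia groups, progenitors were sorted from normal bone marrow as lineage-negative, Sca-1-negative, c-Kit-positive cells, separated by their Fcγ receptor level into CMP (low) and GMP (high), and infected with a retrovirus carrying the fusion oncogene MLL-AF9 (MA9) together with green fluorescent protein (GFP). GFP+ cells were transplanted into sublethally irradiated recipients, and bulk GFP+ leukaemia cells were sorted from terminal mice. The labels give bone marrow as the tissue, whereas the study's methods name the recipients' spleen as the source of the leukaemia cells for RNA. The samples are from individual mice of replicate experiments, but which sample belonged to which experiment was not given in the sources used here. The fusion was driven by a viral promoter, so its level does not follow the endogenous gene. In the study, real-time PCR found more of the fusion transcript in GMP:MA9 than in CMP:MA9 bulk leukaemia cells. The level of the fusion therefore cannot be told apart from origin here. The GFP gate selects cells that carry the virus and not a stage of maturation. Fewer cells of a type and less RNA per cell cannot be told apart in such bulk samples. The normal counterparts were sorted CMP (n = 5) and GMP (n = 5), and the remaining leukaemias were MPP:MA9 (n = 6, from multipotent progenitors) and STHSC:MA9 (n = 3, from short-term haematopoietic stem cells).

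CMP are the common source of the granulocyte-macrophage and the megakaryocyte-erythrocyte branches of blood formation, and GMP are their progeny on the granulocyte-macrophage side. MLL is a histone methyltransferase that keeps HOX genes active, and fusing its N-terminal part to AF9 ties it to the transcription elongation machinery, which holds HOXA genes and the cofactor Meis1 at high levels. The fusion can transform both stem cells and committed progenitors, and in mice it gives an acute myeloid leukaemia of granulocyte-monocyte character.

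A marker of the myeloid lineage and a HOXA gene were present in every sample. Itgam, which encodes CD11b, was between 154 and 315 FPKM in the 10 leukaemias, and Hoxa9 was between 12.5 and 41.4 FPKM. Of 11 B cell genes, 4 were at 0 in all 10 samples, and the summed level of the list was 28.2 to 43.3 FPKM in CMP:MA9 and 18.2 to 41.9 FPKM in GMP:MA9. Of 14 T and NK cell genes, 1 was at 0 throughout and the sums were 1.69 to 7.23 FPKM and 2.55 to 23.8 FPKM.

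Library composition differed with the origin. Relative depth is a rough estimate from the steps of at most 20 low genes per sample. It was 0.795 to 0.920 in CMP:MA9 replicates 2 to 4 and 0.992 to 1.26 in GMP:MA9, without overlap. CMP:MA9 replicate 1 was listed at 0.947 but had 0 low genes to estimate it from. The slope of expression on GC content (in log2 units for a rise of 10 percentage points) was -0.01 to 0.11 in CMP:MA9 and -0.21 to -0.10 in GMP:MA9, also without overlap. Neither depth nor the GC trend can be told apart from origin in these samples, and values after a correction for GC content and transcript length are therefore given beside the results. GMP:MA9 replicate 2 stood apart, with 34.5% of its summed FPKM in mitochondrial genes (12.8% to 28.8% in the other 9) and the steepest trend on transcript length, and results that rest on it are given with and without it.

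Over all genes the leukaemias of the 2 origins were close. On log2(FPKM + 1), the scale of every log2 value below unless another is named, the median difference (CMP:MA9 minus GMP:MA9) was 0.03, and 87.6% of genes differed by less than 0.5. The limits of precision are set by 4 and 6 mice, with a median standard error (SE) of 0.21 and a median 95% interval of 0.44 to each side. The Pearson correlation across genes was 0.927 to 0.969 (median 0.946) for pairs within CMP:MA9, 0.892 to 0.963 (median 0.943) within GMP:MA9 and 0.884 to 0.964 (median 0.944) for pairs of different origin. Genes are not independent replicates, and these correlations are a description. Origin accounted for 14.3% of the summed squared distance between samples (exact permutation test over 210 assignments, one-sided, p = 0.124; the smallest p possible was 0.00476). With each gene scaled to unit variance the share was 16.2% (p = 0.0429, exact permutation test), so this call depended on the weight given to strongly expressed and variable genes.

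**Figure D1:**
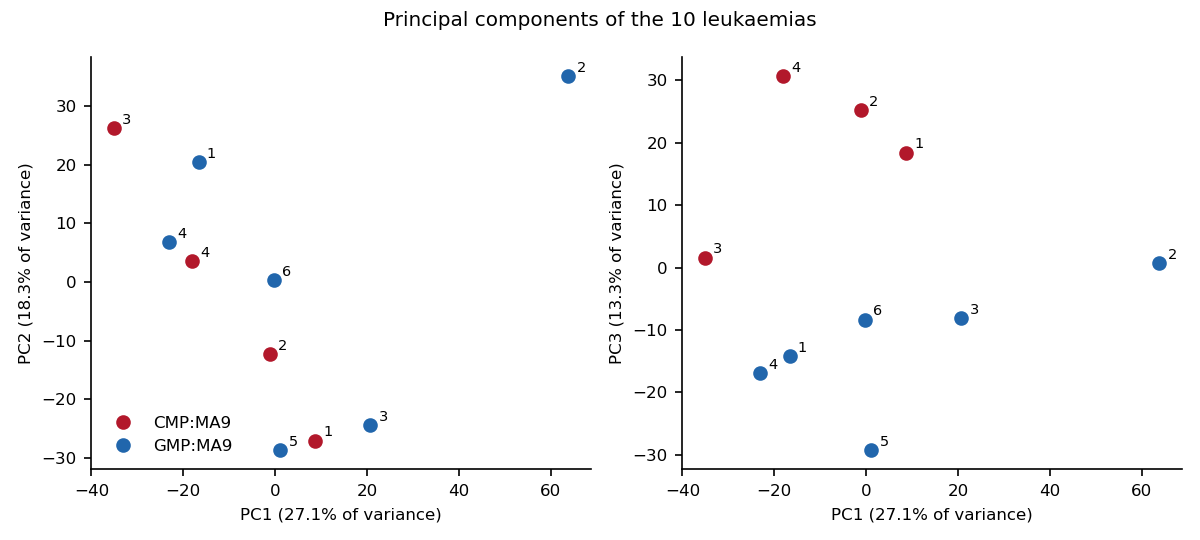
Principal components of the 10 leukaemias, computed on centred log2(FPKM + 1) of 12077 genes, with PC1 against PC2 on the left and PC1 against PC3 on the right and each point 1 mouse labelled by replicate. GMP:MA9 replicate 2 lies alone at 63.8 on PC1, the origins intermingle on PC1 and PC2, and on PC3 CMP:MA9 samples lie between 1.61 and 30.8 and GMP:MA9 samples between -29.3 and 0.785.

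The first component (27.1% of the variance) separated GMP:MA9 replicate 2, at 63.8, from the other samples, at -35.1 to 20.8. The second (18.3%) mixed both origins. On the third (13.3%) every CMP:MA9 sample lay above every GMP:MA9 sample, and this description carries no test. As the plot of principal components shows, the largest sources of variation among these leukaemias did not follow origin.

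Gene by gene, 25 of 12077 genes (0.207%) differed at an adjusted p below 0.05 and a log2 difference beyond 1 (limma across all 19 leukaemias, two-sided, Benjamini-Hochberg), 21 higher (0.174%) and 4 lower (0.0331%) in CMP:MA9. Of these, 3 identifiers carried identical values, and counting them once left 23 measurements, 19 higher and 4 lower. Without the limit on size, 126 genes (1.04%) passed the adjusted p, 112 higher (0.927%) and 14 lower (0.116%). At an unadjusted p below 0.05 there were 1073 higher (8.88%) and 586 lower (4.85%), and 6414 genes (53.1%) had a difference above 0. The samples of the 2 groups did not overlap at all for 518 genes (4.29%), among them 19 of the 23 called measurements. The called genes comprised the immediate early gene Ier2, the differentiation inhibitor Id1, the histone gene Hist1h2be, the histone methyltransferase gene Mll2, the ribosomal gene Rps27a, the ATP synthase gene Atp5g2, further single genes and a set of processed copies of housekeeping genes. Of the 19 called measurements that carry a symbol, 14 are annotated as protein-coding and 5 as pseudogenes.

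The GC trend bears on these counts. Across 11612 genes, which are not independent replicates, the log2 difference and GC content were related with a Spearman coefficient of 0.41, and the called genes had a median GC content of 54.5% against 49.4% for all tested. After the correction for GC content and length this coefficient was -0.01 and 5 genes were called. Of the 19 called measurements that could be corrected, 4 stayed called (Atp5g2, Gm13394, Rps27a and Hist1h2be), and Ier2 passed the adjusted p at a log2 difference of 0.84. In a fit of the 10 samples alone, in which the spread is estimated from fewer mice, 5 genes were called. Single mice decided many calls as well, and 8 of the 23 measurements stayed called without each mouse in turn, among them Atp5g2, Ier2, Tfpt, Ccdc94 and Gm13394. Mpnd lost its call without CMP:MA9 replicate 2 alone (adjusted p = 0.0765), AY036118 without CMP:MA9 replicate 2 or GMP:MA9 replicate 2, and Mll2, whose difference then fell just below 1, without each of 5 mice in turn. Id1, Dusp3, Eno3, Krt80, Gm3200, Gm5148, Gm10443, Gm12751 and Dynlt1-ps1 each lost it without CMP:MA9 replicate 4 and without at least 2 further mice.

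The largest difference lay in Atp5g2 (ENSMUSG00000062683, NCBIM37 chr15:102493299-102501478, minus strand), a nuclear gene for subunit c of the mitochondrial ATP synthase, whose rotating ring drives ATP formation. It was at 21.1, 8.73, 20.2 and 24.7 FPKM in the 4 CMP:MA9 samples and listed at 0 in all 6 GMP:MA9 samples. The limma adjusted p was 2.22e-06, the smallest of all genes, and 5.38e-06 after the GC and length correction, and it was called in each of the 19 alternative fits. The log2 difference of 4.21 (95% interval 3.50 to 4.92) depends on the pseudocount, and no fold is given against a group at 0. MPP:MA9 ranged from 8.63 to 31.6 FPKM and all 3 STHSC:MA9 samples were listed at 0. Among normal cells, CMP ranged from 17.7 to 58.3 FPKM, and GMP were at 11.6, 23.5, 5.82, 0 and 0 FPKM.

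Atp5g2 shares its sequence with other loci, so its zeros need the copies beside them. Of its 31-base windows, 64.6% occur in another annotated gene. Its coding sequence of 441 bases occurs with 0 differences in 2 intronless genes, Gm10175 (NCBIM37 chr7:24731811-24732251, minus strand) and Gm10231 (chr17:5816200-5816640, minus strand). The first 150 bases of the coding sequence, 5′ to 3′ from the start codon, are shown because all 3 loci carry them letter for letter, and they stand in lower case throughout since no base sets a copy apart.
Atp5g2, Gm10175 and Gm10231: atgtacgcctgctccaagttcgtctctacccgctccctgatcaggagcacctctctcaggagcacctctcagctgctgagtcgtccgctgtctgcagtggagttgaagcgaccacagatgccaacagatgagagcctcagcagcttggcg

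Reads from this stretch could come from any of the 3 genes, and RSEM, the program that made the deposited values, divides such reads by a statistical model. Gm10175 ranged from 87.2 to 144 FPKM in CMP:MA9 and from 81.7 to 219 FPKM in GMP:MA9, and Gm10231 from 195 to 284 FPKM and from 63.4 to 253 FPKM. Summed over the 3 loci, CMP:MA9 was at 376 ± 62.4 FPKM (SD, n = 4; 303 to 448) and GMP:MA9 at 353 ± 119 FPKM (SD, n = 6; 145 to 448). The groups overlapped in this sum, with a log2 difference of 0.17. The paralogues that encode the same mature protein did not pass the test, with a log2 difference of -0.13 for Atp5g1 and -0.10 for Atp5g3 (0.01 for Atp5g3 after GC and length correction). Thus the listed level of Atp5g2 parted the groups without overlap, whereas the summed level of the identical sequence did not.

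**Figure D2:**
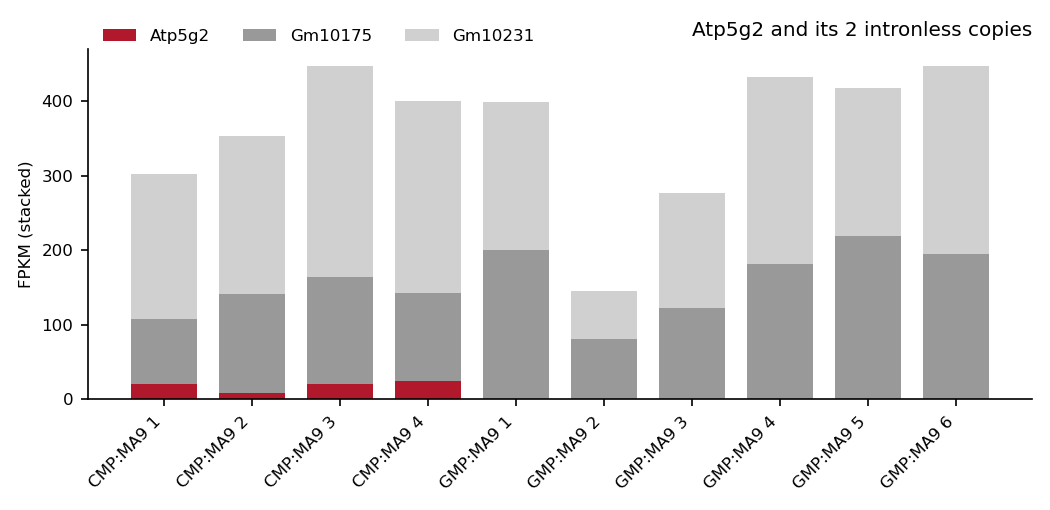
FPKM of Atp5g2 and of the intronless copies Gm10175 and Gm10231, stacked, in each of the 10 leukaemias. Atp5g2 appears only in the 4 CMP:MA9 bars, at 8.73 to 24.7 FPKM, and the total height overlaps between origins, from 303 to 448 in CMP:MA9 and from 145 to 448 in GMP:MA9.

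Other called features also share sequence. Dynlt1-ps1, a pseudogene of a dynein light chain, was at 1.03, 12.4, 29.6 and 50.1 FPKM in CMP:MA9, and in GMP:MA9 at 0 to 1.74 FPKM (median 0.095). Its lowest CMP:MA9 sample lay below the highest GMP:MA9 sample, so the groups overlapped despite a log2 difference of 3.44 ± 0.73 (SE; limma adjusted p = 0.0276). Gm12751, of whose windows 84.0% occur in the RNA polymerase gene Polr1d, was at 23.5, 25.4, 27.4 and 34.6 FPKM in CMP:MA9 and at 0 to 14.3 FPKM in GMP:MA9 (log2 difference 2.43 ± 0.55, adjusted p = 0.037). Polr1d itself had a log2 difference of 0.43 (adjusted p = 0.287), and the sum of both genes did not overlap between groups. Gm10443, a copy of the ribosomal gene Rps28, was at 838, 1241, 695 and 949 FPKM in CMP:MA9 and at 130 to 542 FPKM in GMP:MA9 (log2 difference 1.38 ± 0.31, adjusted p = 0.0367). Rps28 had a difference of 0.62 (adjusted p = 0.218), and again the sum of the family did not overlap. For these 3 copies the call was lost after the GC and length correction, with adjusted p of 0.0661, 0.115 and 0.0652, while the log2 differences were 3.44, 2.32 and 1.31.

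Features related to the glycolytic gene Gapdh lay in opposite directions. Gm13394, of whose windows 81.4% occur in Gapdh (NCBIM37 chr2:28788950-28790200, minus strand), was lower in CMP:MA9, at 63.7, 79.3, 108 and 109 FPKM against 207 to 361 FPKM in GMP:MA9 (log2 difference -1.67 ± 0.27, adjusted p = 0.00966, and 0.00745 after GC and length correction). Gm3200 was higher in CMP:MA9, at 586, 769, 1133 and 972 FPKM against 304 to 619 FPKM (log2 difference 1.05 ± 0.20, adjusted p = 0.0132, and 0.0661 after correction). Of the windows of Gm3200, 58.9% occur in Gm13394. Gapdh itself ranged from 1463 to 2876 FPKM in CMP:MA9 and from 2134 to 2755 FPKM in GMP:MA9 (log2 difference -0.26, adjusted p = 0.628). The sum of Gm3200 with its 3 nearest copies overlapped between origins, from 661 to 1247 and from 589 to 864 FPKM.

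Among genes with little or no shared sequence, Ier2 was the most stable. Ier2 (ENSMUSG00000053560, chr8:87185230-87186751, minus strand) is an immediate early gene, one of those induced within minutes of growth factor or stress signals without new protein synthesis. It was at 24.9, 34.3, 36.4 and 39.5 FPKM in CMP:MA9 and at 10.9 to 19.6 FPKM (median 13.6) in GMP:MA9. Every CMP:MA9 sample was above every GMP:MA9 sample, with a log2 difference of 1.18 ± 0.19 (adjusted p = 0.00925). It stayed called without each mouse in turn and in the fit of the 10 samples alone. In normal cells the values were 11.3 to 72.8 FPKM in CMP and 7.64 to 30.3 FPKM in GMP, which overlapped (log2 difference 1.06, adjusted p = 0.075).

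Other immediate early and early response genes lay on the same side. Junb, a subunit of the AP-1 transcription factor, was at 5.15, 8.26, 7.13 and 6.84 FPKM in CMP:MA9 and at 2.27 to 3.93 FPKM (median 3.05) in GMP:MA9, without overlap. It passed the adjusted p below the size limit (log2 difference 0.92 ± 0.17, adjusted p = 0.0132), but not after GC and length correction. Of 20 immediate early and heat shock genes tested, 16 (80.0%, against 53.1% of all genes) had a difference above 0, with a median of 0.43 against 0.03. At an unadjusted p below 0.05 there were 4 higher (against 8.88% of all genes) and 0 lower, namely Ier2, Junb, the growth arrest gene Gadd45b (0.75) and the anti-proliferative gene Btg2 (0.43). The median was 0.51 without GMP:MA9 replicate 2 and 0.30 after GC and length correction. In normal cells the same list had a median of 0.99 for CMP minus GMP, with 5 called higher and 1 called lower.

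Id1 encodes a helix-loop-helix protein without a DNA-binding domain that holds E-proteins and other partners in inactive dimers. It was at 16.4, 24.5, 29.3 and 30.7 FPKM in CMP:MA9 and at 4.34 to 17.1 FPKM (median 9.04) in GMP:MA9. The lowest CMP:MA9 mouse lay below the 2 highest GMP:MA9 mice, and the log2 difference was 1.30 ± 0.28 (adjusted p = 0.029, and 0.0661 after GC and length correction). Normal cells showed the opposite order, 0.62 to 5.11 FPKM in CMP and 3.61 to 6.99 FPKM in GMP (log2 difference -1.24, adjusted p = 0.031). The difference between the leukaemic and the normal contrast was itself tested and was 2.54 ± 0.52 (adjusted p = 0.000549).

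The other myeloid transcription factors also tended upwards in CMP:MA9. Sfpi1, which encodes PU.1, the master regulator of the macrophage and B cell fates, was at 216, 232, 245 and 263 FPKM in CMP:MA9 and at 99.7 to 193 FPKM (median 120) in GMP:MA9, without overlap. Its log2 difference was 0.88 ± 0.15 (adjusted p = 0.00972, and 0.112 after GC and length correction). Of 16 myeloid transcription factors tested, 13 (81.2%) had a difference above 0, with a median of 0.36, and 5 were higher (31.2%) and 0 lower at an unadjusted p below 0.05. Klf4, a driver of monocyte differentiation, was at 49.5, 44.3, 28.9 and 21.5 FPKM against 6.57 to 27.7 FPKM (log2 difference 0.99, adjusted p = 0.23). Cebpa, the factor required to form GMP, was at 18.7, 15.6, 12.0 and 21.1 FPKM against 7.33 to 14.0 FPKM (0.46, adjusted p = 0.262). The median over the list was 0.39 without GMP:MA9 replicate 2 and 0.10 after GC and length correction.

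**Figure D3:**
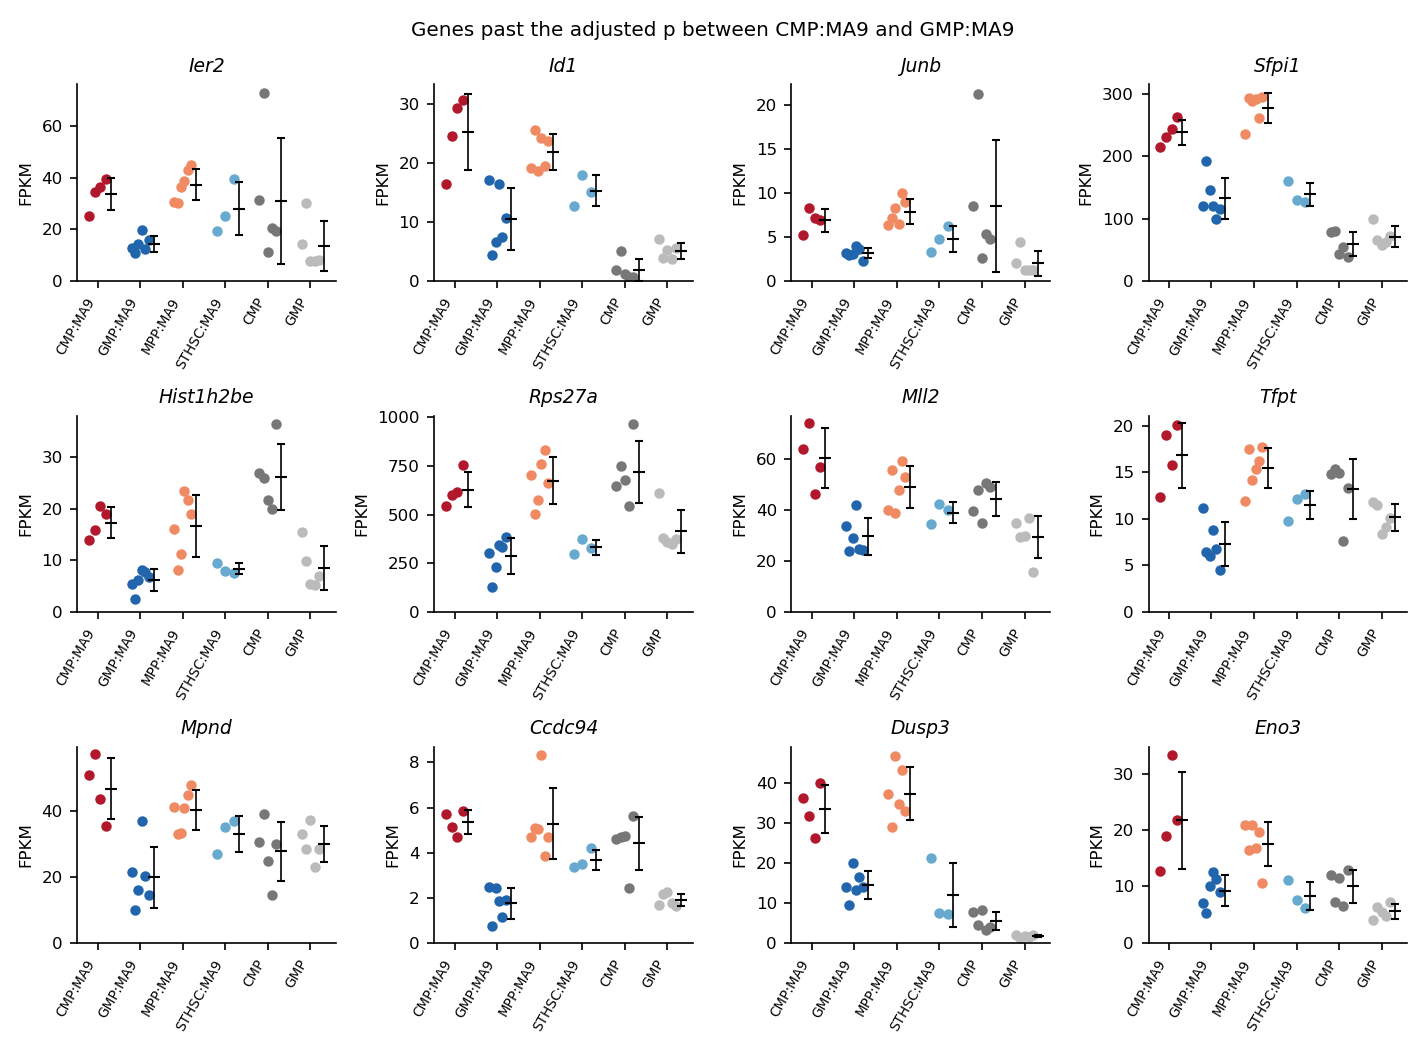
FPKM of 12 genes that passed the adjusted p between CMP:MA9 and GMP:MA9, with 1 point per mouse and the mean ± SD beside the points, in the 4 leukaemia groups and in normal CMP and GMP; each panel has its own linear axis from 0. For Ier2 the CMP:MA9 samples lie at 24.9 to 39.5 and the GMP:MA9 samples at 10.9 to 19.6, and the MPP:MA9 samples lie with CMP:MA9, at 30.3 to 45.04.

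Some of the genes that passed the adjusted p act on chromatin. They were gathered after their values had been seen and are no tested list. Mll2 (now Kmt2d), which encodes a histone H3 lysine 4 methyltransferase of enhancers and is a different gene from the one in the fusion, was at 64.2, 74.3, 46.3 and 57.1 FPKM in CMP:MA9 and at 23.8 to 42.2 FPKM (median 26.9) in GMP:MA9. The groups did not overlap (log2 difference 1.01 ± 0.17, adjusted p = 0.00972, and 0.0652 at a difference of 0.83 after correction). Tfpt, a subunit of the INO80 chromatin remodelling complex, was at 12.3, 18.98, 15.8 and 20.1 FPKM against 4.47 to 11.2 FPKM (log2 difference 1.13 ± 0.19, adjusted p = 0.00972, and 0.0679 after correction) and stayed called without each mouse in turn. Vps72, a histone chaperone subunit of the SRCAP and TIP60 complexes, was at 41.0, 42.9, 49.4 and 36.6 FPKM against 20.3 to 26.8 FPKM. Its log2 difference was 0.88 ± 0.13 (adjusted p = 0.0070, and 0.00243 after correction). Trim28, the corepressor that KRAB zinc finger proteins recruit, was lower, at 73.0, 89.5, 90.1 and 78.8 FPKM against 118 to 201 FPKM (log2 difference -0.90 ± 0.16, adjusted p = 0.0105, and 0.00211 after correction). Kdm1a, the lysine demethylase LSD1, was also lower below the size limit (log2 difference -0.58, adjusted p = 0.0292), with overlapping groups, and did not pass after correction.

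Vps72 and Trim28 belonged to the 101 genes that passed the adjusted p with a difference of at most 1, of which 91 were higher and 10 lower in CMP:MA9. The other 2 of these that also passed after GC and length correction were Nceh1, a cholesterol ester hydrolase (0.87), and Arfgap2, a GTPase activator of coatomer transport (0.93). Both had no overlap between groups, with Nceh1 at 24.8 to 35.2 FPKM in CMP:MA9 and 12.3 to 20.5 FPKM in GMP:MA9, and Arfgap2 at 19.9 to 22.97 FPKM and 7.94 to 13.9 FPKM. Vps72, Trim28, Nceh1 and Arfgap2 were picked out after their corrected values had been seen, as were Kdm1a and the genes of the next sentence. Card9, an adaptor of fungal recognition receptors (0.98), Flna, an actin crosslinker (0.97), Ftl1, the ferritin light chain (0.89), and the kinase genes Akt1 (0.61) and Csk (0.62) were higher in CMP:MA9, with adjusted p of 0.00966, 0.0471, 0.0138, 0.0105 and 0.0114, none of which held after correction (0.0652 to 0.307).

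Hist1h2be was the called member of the replication-dependent histone genes, which supply the nucleosomes of S phase and whose transcripts end in a stem loop in place of a poly(A) tail. It was at 13.9, 15.9, 20.5 and 18.9 FPKM in CMP:MA9 and at 2.36 to 8.18 FPKM (median 6.44) in GMP:MA9, without overlap. The log2 difference was 1.42 ± 0.28 (adjusted p = 0.0171, and 0.0182 after GC and length correction). The call was lost when CMP:MA9 replicate 2, 3 or 4 was left out. Its annotated exons overlap Gm11398 on the same strand, and reads of the 2 cannot be told apart. Of its promoter, 150 bases ending next to the transcription start (RefSeq, GRCm38.p6, chromosome 13, minus strand) are shown because H2B promoters are known for the octamer ATTTGCAT, the binding motif of OCT1, which stands in capitals and begins at base -67.
Hist1h2be (H2bc6 in RefSeq), promoter from -150 to -1: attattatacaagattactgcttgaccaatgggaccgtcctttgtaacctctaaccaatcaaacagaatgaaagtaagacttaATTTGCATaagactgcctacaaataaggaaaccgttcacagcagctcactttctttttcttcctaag

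Searched on both strands over 250 bases before to 50 after each start, ATTTGCAT occurred in 570 of 32851 RefSeq promoters (1.74%). Among histone genes tested with a promoter in the table, it occurred in 5 of 11 H2B genes and in 3 of 30 others. This is a property of the sequence, and nothing on the factor follows from it.

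Over 46 histone genes tested, 35 (76.1%) had a difference above 0 and the median was 0.56. At an unadjusted p below 0.05, 19 were higher (41.3%, against 8.88% of all genes) and 0 lower. The samples did not overlap for 10 of the 46, against 4.29% of all genes. Hist1h4d was at 366, 421, 447 and 439 FPKM in CMP:MA9 and at 89.8 to 274 FPKM in GMP:MA9 (log2 difference 1.13, adjusted p = 0.0665), and the linker histone gene Hist1h1e had a difference of 0.91 (adjusted p = 0.128). The median was 0.35 without GMP:MA9 replicate 2, in which the summed histone level of 546 FPKM was the lowest of the 10 and 0.25 after GC and length correction. Histone genes had a median GC content of 59.4%, against 49.4% of all genes tested. Normal CMP exceeded GMP by a similar median of 0.51, with 7 genes called higher. Of 30 DNA replication and mitosis genes, 14 had a difference above 0, the median was -0.01 and none passed at an unadjusted p below 0.05 in either direction. Without GMP:MA9 replicate 2, whose summed level of 835 FPKM was again the lowest of the 10, 7 of 30 were above 0 and the median was -0.13. Mki67, the proliferation marker, was at 87.5 to 127 FPKM in CMP:MA9 and at 81.7 to 134 FPKM in GMP:MA9.

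**Figure D4:**
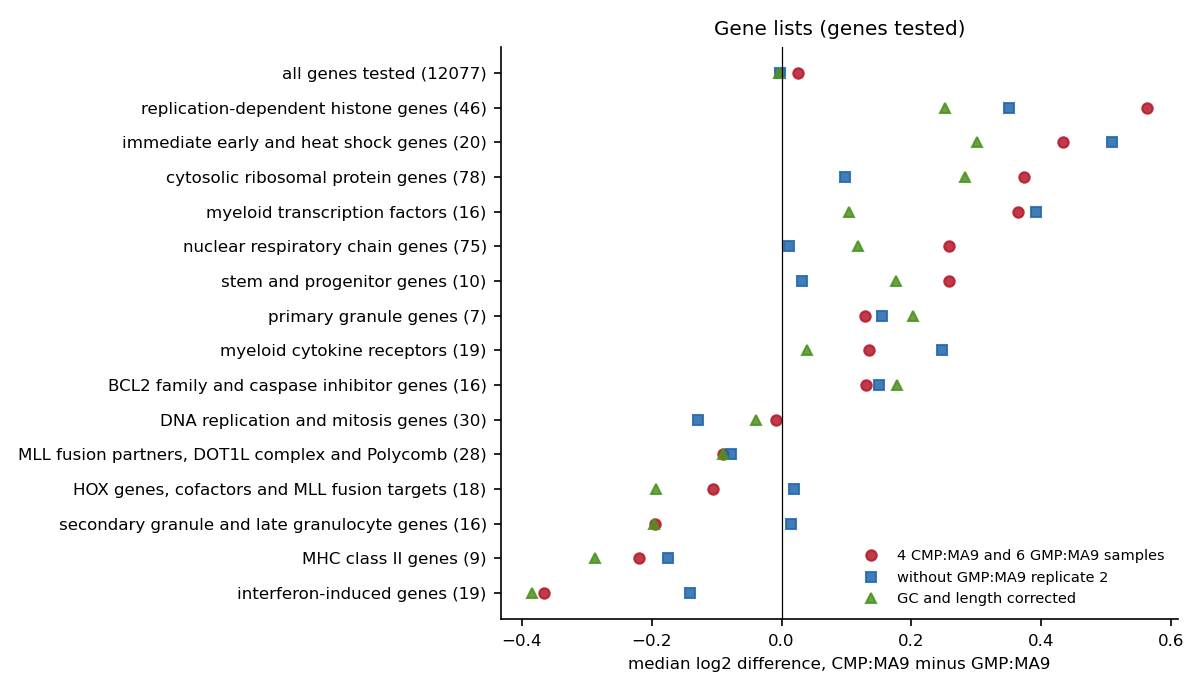
Median log2 difference (CMP:MA9 minus GMP:MA9) over the tested members of each gene list, with the number of genes in brackets, for all 10 samples (circles), without GMP:MA9 replicate 2 (squares) and after GC and length correction (triangles). The histone, immediate early and ribosomal lists have medians of 0.56, 0.43 and 0.37 and the interferon list -0.37; the ribosomal median falls to 0.10 without that replicate.

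Rps27a encodes a fusion of ubiquitin with a protein of the small ribosomal subunit. It was at 543, 600, 616 and 755 FPKM in CMP:MA9 and at 129 to 383 FPKM (median 318) in GMP:MA9, without overlap (log2 difference 1.20 ± 0.24, adjusted p = 0.0173, and 0.0101 after GC and length correction). The call was lost when CMP:MA9 replicate 2, 3 or 4 or GMP:MA9 replicate 2 was left out. With its 2 closest copies added, the sum was 690 to 992 FPKM in CMP:MA9 and 219 to 718 FPKM in GMP:MA9, which overlapped. Of 78 cytosolic ribosomal protein genes tested, 71 (91.0%) had a difference above 0, with a median of 0.37, and 20 were higher (25.6%) and 0 lower at an unadjusted p below 0.05. Without GMP:MA9 replicate 2 the median was 0.10 with 51 above 0, and the summed level of the list in that mouse, 24662 FPKM, was far under the 54219 to 92035 FPKM of the other 9. Rps27, at 1061 to 1410 FPKM against 209 to 752 FPKM, and Rps16, at 308 to 364 FPKM against 71.6 to 213 FPKM, did not overlap (log2 differences 1.15 and 1.03, adjusted p = 0.0529 and 0.0563). In normal cells the list had a median of 0.06.

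Genes of energy metabolism were described as a nuclear and a mitochondrially encoded list. Of 75 nuclear genes of the respiratory chain, 52 (69.3%) had a difference above 0 with a median of 0.26, and 15 were higher and 3 lower at an unadjusted p below 0.05. Without GMP:MA9 replicate 2 the median was 0.01, and after GC and length correction it was 0.12. Atp5d, the delta subunit of ATP synthase, was at 135, 135, 138 and 135 FPKM in CMP:MA9 and at 82.8 to 107 FPKM in GMP:MA9 (log2 difference 0.55, adjusted p = 0.0246, with 0.30 after correction), and Sdhb of complex II had a difference of 0.55 (adjusted p = 0.0581). Uqcrc2 of complex III lay the other way (-0.41, adjusted p = 0.126). Of 15 mitochondrially encoded genes tested, 7 had a difference above 0 with a median of -0.01. At an unadjusted p below 0.05, 2 were lower (13.3%, against 4.85% of all genes), mt-Co1 (-0.60) and mt-Nd3 (-0.52). Eno3, the muscle-type enolase of glycolysis, was called at 12.8, 19.03, 33.5 and 21.8 FPKM against 5.22 to 12.6 FPKM (log2 difference 1.13 ± 0.26, adjusted p = 0.0367, and 0.115 after correction).

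The remaining called genes came from single pathways. Dusp3, a phosphatase of MAP kinases, was at 36.2, 31.8, 26.2 and 40.04 FPKM in CMP:MA9 and at 9.48 to 19.9 FPKM in GMP:MA9 (log2 difference 1.17 ± 0.24, adjusted p = 0.0242, and 0.0661 after correction), and normal CMP exceeded GMP by 1.22 as well. Krt80, a keratin that was at 0.48 to 1.23 FPKM in both normal cells, reached 41.9, 74.5, 43.5 and 57.2 FPKM in CMP:MA9 and 16.7 to 40.6 FPKM in GMP:MA9 (log2 difference 1.07 ± 0.25, adjusted p = 0.0472, and 0.145 after correction). Ccdc94, a splicing factor gene, was at 5.69, 5.13, 4.69 and 5.85 FPKM against 0.74 to 2.46 FPKM (log2 difference 1.24 ± 0.20, adjusted p = 0.00925, and 0.0652 after correction). Mpnd was at 50.8, 57.3, 43.7 and 35.5 FPKM against 9.91 to 37.0 FPKM, with overlap (log2 difference 1.28 ± 0.24, adjusted p = 0.0138, and 0.0652 after correction). Gm5148 and AY036118 completed the called genes with symbols, with differences of 1.12 and 1.13. After correction these were 1.17 (adjusted p = 0.064) and 0.60 (adjusted p = 0.208).

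Ccdc94 (chr17:56098610-56107372) and Mpnd (chr17:56145134-56156213) lie on the plus strand within 57.6 kb of each other. Of the genes between them, Shd, Fsd1 and Stap2 had group means of at most 0.14 FPKM and were not tested. Sh3gl1, which starts at the end of Mpnd and overlaps its exons on the other strand, had a log2 difference of 0.29 (adjusted p = 0.377). The libraries carry no strand, so reads of overlapping genes on opposite strands cannot be told apart, which also touches Ccdc94, Rps27a and Gm5148.

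Identifiers without a symbol gave some of the cleanest separations. ENSMUSG00000096807 was at 157, 165, 172 and 155 FPKM in CMP:MA9 and at 30.7 to 61.5 FPKM in GMP:MA9 (log2 difference 1.79 ± 0.30, adjusted p = 0.00972), and normal CMP, at 225 to 434 FPKM, also exceeded GMP, at 38.3 to 158 FPKM. ENSMUSG00000095597 was lower in CMP:MA9, at 74.6, 82.8, 81.7 and 66.1 FPKM against 190 to 413 FPKM (log2 difference -1.73 ± 0.22, adjusted p = 0.00201). ENSMUSG00000094127 was at 1.46, 0, 4.28 and 4.12 FPKM against 8.57 to 39.4 FPKM (log2 difference -2.81 ± 0.49, adjusted p = 0.0114). A further identifier without a symbol was at 1.45 to 2.00 FPKM in CMP:MA9 and at 5.14 to 19.7 FPKM in GMP:MA9 (log2 difference -1.75, adjusted p = 0.0196). The first 2 of these stayed called in all 17 alternative fits without a GC correction, which needs a gene model and was not made for them.

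The HOX programme of the fusion did not separate the origins. Of 18 HOX genes, cofactors and MLL fusion targets tested, 6 (33.3%) had a difference above 0, the median was -0.11 (0.02 without GMP:MA9 replicate 2), and none passed at an unadjusted p below 0.05 in either direction. Hoxa9 was at 25.2, 26.9, 23.6 and 38.8 FPKM in CMP:MA9 and at 12.5 to 41.4 FPKM in GMP:MA9 (log2 difference 0.08, 95% interval -0.58 to 0.75). Meis1 was at 35.6, 35.4, 50.9 and 62.9 FPKM and at 23.7 to 90.8 FPKM (-0.04, interval -0.72 to 0.63). These intervals leave room for differences of up to about 0.7 in either direction, and a missed threshold does not show equal levels. In normal CMP the same list was above GMP by a median of 1.06, with 9 genes called higher and 0 lower. Jmjd1c had a difference of -0.42 and Myb of -0.43 (adjusted p = 0.409 and 0.60).

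MLL partners, the DOT1L complex and Polycomb genes, tested for 28 members, had a median of -0.09, with 2 higher (7.14%) and 4 lower (14.3%, against 4.85%) at an unadjusted p below 0.05. The Polycomb reader gene Cbx8 was above 0 (0.68, adjusted p = 0.166), while Aff4, a scaffold of the super elongation complex, and the H3K27 methyltransferase gene Ezh2 were below 0 (-0.72 and -0.49, adjusted p = 0.109 and 0.318). Among 10 of 18 stem and progenitor genes that could be tested, the median was 0.26 (0.03 without GMP:MA9 replicate 2). Fli1 was at 55.3 to 74.5 FPKM in CMP:MA9 and 42.4 to 54.7 FPKM in GMP:MA9 without overlap (0.35, adjusted p = 0.149), Cd27 had a difference of -0.61 (adjusted p = 0.263), and Kit, at 0.37 to 2.06 and 0.33 to 5.94 FPKM, was far below the 50.6 to 113 FPKM of the normal progenitors. Normal CMP exceeded GMP by a median of 1.42 over this list, with 11 genes called higher.

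Of the genes that the study set beside origin-specific open chromatin or outcome, 11 of 12 were tested and none passed even at an unadjusted p below 0.05. The study chose them on samples of this series, so they are no independent list. Lrrc4c was at 0.38 to 1.07 FPKM in CMP:MA9 and 0.42 to 7.12 FPKM in GMP:MA9 (-0.69), Suv39h2 at 1.52 to 5.32 and 2.84 to 7.65 FPKM (-0.43), Hoxa5 at 5.73 to 9.58 and 6.04 to 17.0 FPKM (-0.35) and Tap2 at 5.05 to 7.99 and 2.55 to 6.97 FPKM (0.33), with adjusted p of 0.375 to 0.706. Rac2 (0.12), Alcam (0.00), Crybg3 (0.03), Mina (-0.07), Cbfa2t3 (-0.05) and Armc1 (-0.02) lay near 0, and the signs of the last 5 changed between fits. Mecom, the locus of Evi1, was at 0.03, 2.65, 0 and 0 FPKM in CMP:MA9 and at 25.6 FPKM in GMP:MA9 replicate 2 and at most 0.99 FPKM in the other 5. Its difference was -0.48 with and 0.27 without that replicate, and Bambi was not tested.

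Markers of maturation varied more between mice than between origins. Prtn3, a primary granule protease, was at 341, 412, 414 and 370 FPKM in CMP:MA9 and at 111 to 474 FPKM (median 212) in GMP:MA9 (0.81, adjusted p = 0.33). Elane, the neutrophil elastase gene, ranged from 157 to 680 FPKM and from 33.5 to 832 FPKM (0.48), Ms4a3 from 2.94 to 92.4 FPKM and from 4.48 to 88.0 FPKM (-0.68) and Mpo from 29.2 to 73.1 FPKM and from 17.7 to 229 FPKM (-0.28), and the signs of these 3 changed when single mice were left out. Of 7 primary granule genes 4 were above 0 (median 0.13), and 1 was higher at an unadjusted p below 0.05. For 16 secondary granule genes the median was -0.20 (0.01 without GMP:MA9 replicate 2, with 8 of 16 above 0), none passed at an unadjusted p below 0.05, and the summed level ran from 2753 to 34325 FPKM within CMP:MA9 and from 1665 to 21765 FPKM within GMP:MA9. The 6 tested genes of the stefin A cluster, protease inhibitors of granulocytes, summed to 1214 to 41738 FPKM and 806 to 19005 FPKM (median difference 0.39, none past an unadjusted p of 0.05).

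Monocyte and macrophage genes had a median of -0.02 over 13 tested members. Lyz2, the lysozyme gene, was at 11208, 11892, 5587 and 5159 FPKM in CMP:MA9 and at 3231 to 5606 FPKM in GMP:MA9 (0.78, adjusted p = 0.246). Of 9 splenic macrophage genes 4 were tested and the list summed to 46.8 to 189 FPKM in CMP:MA9 and 34.9 to 103 FPKM in GMP:MA9, led by the haem-degrading enzyme gene Hmox1 (1.15, adjusted p = 0.308). Of 11 dendritic cell genes, 6 passed the filter, which a gene can do through the higher group alone. All 6 were below 0 (median -0.45). Tcf4, a regulator of plasmacytoid dendritic cells, was at 27.6 to 71.6 FPKM in CMP:MA9 and 50.3 to 245 FPKM in GMP:MA9 (-1.18, adjusted p = 0.385). The 9 MHC class II genes had a median of -0.22 and the 13 MHC class I and peptide loading genes of -0.01, where Nlrc5, the class I transactivator, was lower at an unadjusted p below 0.05 (-0.60, adjusted p = 0.227). Cd74, the invariant chain, reached 272 FPKM in CMP:MA9 and 473 FPKM in GMP:MA9, with a log2 difference of -0.45 (95% interval -2.28 to 1.38).

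Genes induced by interferon lay mostly lower in CMP:MA9, although none passed the adjusted p. Of 19 tested, 2 (10.5%) had a difference above 0, the median was -0.37, and 4 (21.1%, against 4.85%) were lower and 0 higher at an unadjusted p below 0.05. Oas3, a sensor of double-stranded RNA, was at 2.79, 2.74, 3.05 and 2.27 FPKM in CMP:MA9 and at 3.42 to 13.8 FPKM in GMP:MA9 without overlap (-0.80, adjusted p = 0.278). Xaf1, Oasl2 and Oas2 had differences of -1.08, -1.12 and -1.02 (adjusted p = 0.127, 0.313 and 0.357). Without GMP:MA9 replicate 2 the median of the list was -0.14, and after GC and length correction it was -0.38. In normal cells the list lay higher in CMP, with a median of 0.58 and 5 called.

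Erythroid genes were low in both groups, with summed levels of 18.9 to 26.6 FPKM in CMP:MA9 and 25.3 to 156 FPKM in GMP:MA9. The highest sum came from GMP:MA9 replicate 5, and the other GMP:MA9 sums reached at most 61.5 FPKM. Of 14 erythroid genes with values, 6 passed the filter, which a gene near 0 in CMP:MA9 can do only through GMP:MA9. All 6 had a difference below 0 (median -0.87), among them Hba-a1 (-1.06) and Alas2 (-0.69), and none passed at an unadjusted p below 0.05. Because of the filter their common sign is not read as a result. Normal CMP exceeded GMP by a median of 2.68 over this list, with 8 called. Megakaryocyte and platelet genes (5 tested) had a median of -0.03, and mast cell, basophil and eosinophil genes (5 tested) of -0.60, with no member past an unadjusted p of 0.05 in either list. The part of admixed cells in any result was not tested.

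Signalling and survival genes were tested one by one and described as lists, and no member passed the adjusted p. Of 19 myeloid cytokine receptors, 11 (57.9%) were above 0 (median 0.13) and 2 were higher (10.5%) at an unadjusted p below 0.05, Tnfrsf1a (0.54, no overlap) and Il17ra (0.44). For 10 cyclin D and CDK inhibitor genes the median was 0.10, and Cdkn1a, which encodes p21, was at 106, 123, 256 and 194 FPKM in CMP:MA9 and at 26.1 to 154 FPKM in GMP:MA9 (1.19, adjusted p = 0.168). Among 16 BCL2 family and caspase inhibitor genes 11 (68.8%, against 53.1% of all genes) were above 0, and 4 were higher (4 of 16, against 8.88% of all genes) and 1 lower at an unadjusted p below 0.05, with Bcl2l2, Bak1 and Bad at 0.58, 0.40 and 0.47 (adjusted p = 0.0781, 0.139 and 0.18) and a median of 0.13. The 16 adhesion and homing genes had a median of -0.04 with 1 lower, the chemokine receptor gene Ccr1 (-0.51).

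In broader gene classes, 72 small GTPase regulators had a median of 0.09. At an unadjusted p below 0.05, 9 were higher (12.5%, against 8.88% of all genes) and 4 lower (5.56%, against 4.85%). Arhgef11, a guanine nucleotide exchange factor, was higher (0.65, adjusted p = 0.0242) and Rasa1, a Ras inhibitor, lower (-0.64, adjusted p = 0.0367), both without overlap and neither after GC and length correction (0.0769 and 0.165). For 239 zinc finger genes named Zfp the median was 0.03, with Zfp644 lower (-0.60, adjusted p = 0.0394) and Zfp865 higher (0.67, adjusted p = 0.0455), again not after correction (0.123 and 0.575). The medians were -0.32 for 89 small non-coding RNA genes, -0.08 for 487 long non-coding RNA genes and -0.10 for 524 pseudogenes. Of the long non-coding RNA genes, 2210020M01Rik was higher (0.95, adjusted p = 0.0325, with 0.75 after correction). Of the 524 pseudogenes, 5 were higher and 2 lower past the adjusted p, against 0.927% and 0.116% of all genes.

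The normal progenitors differed far more than their leukaemias. Between normal CMP and GMP, 1391 of 12367 genes (11.2%) were called, 982 higher and 409 lower in CMP, and 1533 genes differed by more than 1 against 182 between the leukaemias. The median of all genes was 0.20 here and 0.01 under median-ratio scaling of the samples, which gave 655 higher and 587 lower, so the normal values quoted stand relative to that shift. Followed into the leukaemias, 625 genes called higher in normal CMP had a median leukaemic difference of 0.12 against a normal median of 1.26, and 63.8% of them were higher in CMP:MA9, compared with 53.5% of the 11049 genes tested in both. After GC and length correction this share was 46.8% and the median -0.03, and these genes had a median GC content of 54.3%. For 395 genes called lower in normal CMP, 48.4% were higher in CMP:MA9 and the median was -0.02 (normal median -1.53). Of the first set 7 were also called higher in CMP:MA9, against 21 of all 11049 genes tested in both. Of the second set Id1 was called higher and an identifier without a symbol lower, against 21 and 4 of all 11049. Among the 23 called measurements, 9 were also called between normal CMP and GMP, against 11.2% of the genes tested there.

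**Figure D5:**
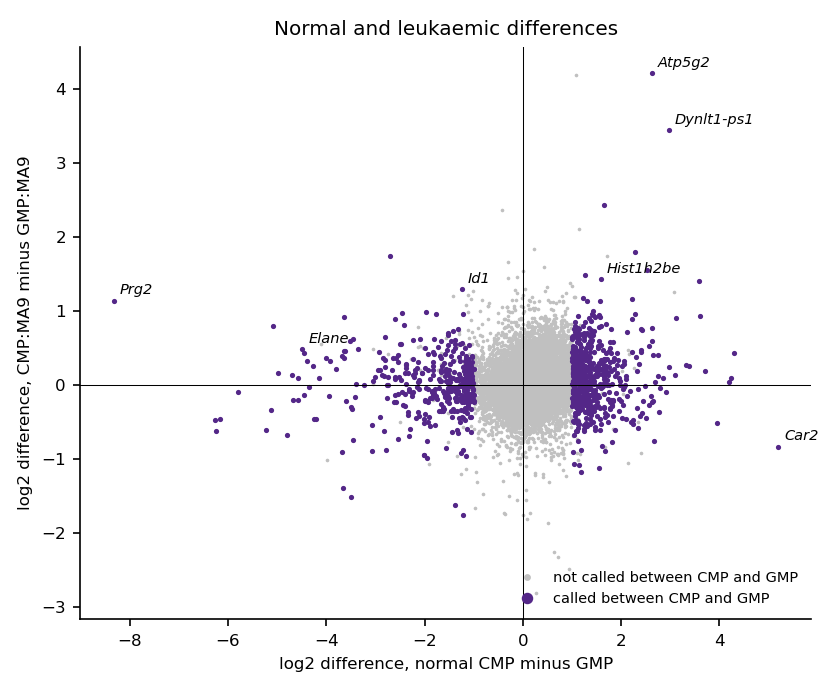
Log2 difference of each gene between normal CMP and GMP (x axis) and between CMP:MA9 and GMP:MA9 (y axis) for the 11049 genes tested in both, with genes called between the normal cells in purple. Prg2 lies at -8.33 and Car2 at 5.19 on the x axis. Of the 625 genes called higher in normal CMP, 16 lie beyond 1 in either direction on the y axis, against 130 of all 11049.

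The difference between the 2 contrasts was called for 1249 of 12245 genes (10.2%), 473 with a larger and 776 with a smaller CMP minus GMP difference in the leukaemias (630 and 542 under median-ratio scaling). The largest concerned granulocyte and erythroid genes. Prg2, the eosinophil major basic protein gene, was at 0.23 to 4.21 FPKM in normal CMP and 291 to 1260 FPKM in normal GMP, but ranged from 7.64 to 275 FPKM in CMP:MA9 and from 1.94 to 400 FPKM in GMP:MA9 (difference of differences 9.46, adjusted p = 9.76e-06). Chi3l3 and Fcnb, genes of secretory proteins of granulocytes and macrophages, had values of 5.88 and 5.79, and S100a8, a calprotectin gene with a normal difference of -6.24, overlapped between the leukaemias (-0.62). Car2, an erythroid carbonic anhydrase, was at 147 to 1029 FPKM in normal CMP and at 4.35 to 13.3 FPKM in normal GMP, but at most at 0.28 FPKM in CMP:MA9 and 13.5 FPKM in GMP:MA9 (difference of differences -6.02). Car1 (-6.91) and the water channel gene Aqp1 (-5.16) followed, and neither reached a mean of 1 FPKM in the leukaemias.

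At the called measurements, MPP:MA9 mostly stood with CMP:MA9. These were chosen for a difference between CMP:MA9 and GMP:MA9, and the same share over all genes was not computed. For 22 of the 23 called measurements the MPP:MA9 mean lay nearer to CMP:MA9 than to GMP:MA9, whereas the STHSC:MA9 mean lay nearer to GMP:MA9 for 17. Sfpi1, for example, was at 236 to 296 FPKM in MPP:MA9 and at 127 to 160 FPKM in STHSC:MA9. The GC slopes had the same order, 0.19 to 0.26 in MPP:MA9 and -0.19 to -0.13 in STHSC:MA9, and their part in these positions was not tested. Since all 4 groups shared the fit, these positions are a description.

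Variation within an origin was largest in genes with copies or small RNAs. In both groups Rpl27-ps3, a ribosomal pseudogene, had the largest spread, at 45.9, 366, 324 and 0 FPKM in CMP:MA9 and at 0.02 FPKM in GMP:MA9 replicate 2 but 251 to 357 FPKM in the other 5, and 93.3% of its windows are shared. A SNORA67 locus was at 89.8, 0, 0 and 50.5 FPKM in CMP:MA9, and U1 was at 57.7, 60.7, 0 and 0 FPKM. Prg2 was the protein-coding gene with the largest SD in GMP:MA9, 2.61 log2 units.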

How the data were processed

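RNA of GFP+ leukaemia cells and of sorted normal cells was amplified with the NuGen Ovation RNA-Seq V2 kit, which keeps no strand. The authors made the deposited FPKM table with RSEM on mm9, as the submitters' processing notes and the study's methods state. The version of RSEM was not given in the sources used here. Of its columns, 49 matched a sample and 19 did not, and the latter were not used. The study tested estimated counts, which were not used here. At the same nominal limits on fold and false discovery rate, it reported only 1 gene between CMP:MA9 and GMP:MA9. That number and the one given here come from unlike values and tests. Genes averaging 1 FPKM or more in the 10 leukaemias entered the comparison.

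Values were tested as log2(FPKM + 1) with limma 3.58.1 in R 4.3.3 (empirical Bayes with a mean-variance trend, two-sided, Benjamini-Hochberg adjustment over all genes kept). CMP:MA9 and GMP:MA9 were compared with MPP:MA9 and STHSC:MA9 in the same fit, normal CMP and GMP in a fit of 30 normal samples, and the difference of differences in a fit of 40 samples. Calls needed both an adjusted p below 0.05 and a log2 difference beyond 1. For the correction, each sample's values were adjusted by a lowess on GC content and then length (span 0.3). Gene models were GENCODE M1 (NCBIM37), and 33068 of 38253 genes had a symbol. Shared sequence was counted in windows of 31 bases. Scripts were tested on simulated data. Read depth is unknown beyond the relative estimate, so no counting intervals are given. Named genes were those called, those with the largest differences or within-group spread, and the genes that the study set beside chromatin or survival. From each list, a few members with the smallest limma p were also named, whether or not they passed. The members and gene lists were chosen with earlier results of these data known. Alternatives covered the pseudocount, filter, scaling, samples in the fit, replicate block, variance trend, correction and each mouse left out.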

Additional observations from a re-analysis of the deposited data

Results flagged for a closer look

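Single mice stood apart from their group in 6 of 76 groups checked. A chance rate of about 1 in 20 holds for independent groups. The groups checked share the same mice, so no conclusion is drawn from the count. These were ENSMUSG00000096617 in CMP:MA9 replicate 4 (1.45 FPKM), Gm5148 (5.82 FPKM), Gm10443 (129.6 FPKM), Hist1h2be (2.36 FPKM) and Mecom (25.6 FPKM) in GMP:MA9 replicate 2, and Mecom in CMP:MA9 replicate 2 (2.65 FPKM).

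The CMP minus GMP difference was tested for a change between leukaemias and normal cells, and it differed for 1249 genes (limma, adjusted). Among genes called between CMP:MA9 and GMP:MA9, the difference of differences was -3.08 for ENSMUSG00000094127, 1.38 for Gm3200, 0.96 for Krt80, 0.90 for Gm5148, 1.44 for Mpnd and 2.54 for Id1. Of these, Krt80 and Gm5148 lay below the size limit of 1. Among genes that separated the normal progenitors it was 9.46 for Prg2, 5.88 for Chi3l3, 5.79 for Fcnb, -6.02 for Car2, -6.91 for Car1 and -5.16 for Aqp1.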

How the results depend on the processing

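The main comparison called 25 genes. The count was 5 in the fit of only the 10 samples, 126 with no limit on size, 5 after GC and length correction, and between 13 (without CMP:MA9 replicate 4) and 38 (without GMP:MA9 replicate 4) with 1 mouse left out. Without CMP:MA9 replicate 2 or 3 it was 15. It was 29 with a pseudocount of 0.1, 19 of 20893 with every gene above 0, 25 with median-ratio scaling and 24 without the variance trend. For normal CMP against GMP the count of 1391 became 4541 with no limit on size, 2028 with a pseudocount of 0.1 and 1050 (524 higher and 526 lower) after GC and length correction. The difference of differences, at 1249 genes, became 1094 after that correction (584 higher and 510 lower). The share of squared distance was 16.2% with unit variance. The causes were not tested.

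Replicate numbers did not pair the leukaemias (correlations of deviations -0.364, 0.123, -0.357 and 0.009). With the replicate block 7 genes were called, and 5 with GC and length correction and block. In normal cells the correlations were 0.048, 0.215, 0.121, 0.290 and 0.111, and 5 of 5 CMP samples correlated best with their own number, a hint from the data and not the design. The block gave 1403 calls there and 1194 for the difference of differences.

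Over 129 genes and 2443 refits, 56 turned the sign, all of differences that had not passed the test. With 1 mouse left out, Cbfa2t3 ranged from -0.25 to 0.083, Alcam from -0.19 to 0.19, Crybg3 from -0.13 to 0.21, Mina from -0.20 to 0.085, Armc1 from -0.087 to 0.053, Mecom from -0.94 to 0.27, Hoxa9 from -0.12 to 0.21, Itgam from -0.17 to 0.035, Mki67 from -0.12 to 0.058, Elane from -0.074 to 0.84, Meis1 from -0.23 to 0.15, Mpo from -0.57 to 0.15, Stfa2l1 from -0.43 to 1.24, Rpl27-ps3 from -2.54 to 0.68, Cd74 from -1.07 to 0.020, Csf1r from -0.00525 to 0.39 and Ms4a3 from -1.38 to 0.14. With the block Cbfa2t3 was at 0.083, Atp5g3 at 0.0042, Hoxa9 at -0.017, Mki67 at 0.0076 and Mpo at 0.12. With median-ratio scaling Alcam was at -0.028 and Crybg3 at -0.0051. After GC and length correction Armc1 was at 0.10, Atp5g3 at 0.0099, Mki67 at 0.022 and Meis1 at 0.037. With correction and block Mina was at 0.0063, Armc1 at 0.11, Atp5g3 at 0.10, Hoxa9 at -0.060 and Mki67 at 0.077.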
